A study of Mus musculus with 28 samples.

Results

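The interaction of 5-FU with ICB was measured in 19 of the 28 tumors of the series, those of the PBS, ICB, 5-FU and 5-FU+ICB groups, which together form a 2 by 2 design. These tumors were selected by their treatment labels, and the readout was 1 number per gene, the effect of adding 5-FU to ICB minus the effect of 5-FU given without ICB. It was computed for the 17916 of 55341 genes that passed a filter on low counts. RNA was sequenced from whole subcutaneous AB1-HA tumors, AB1-HA being a single mouse mesothelioma line that carries influenza hemagglutinin, so that tumor cells, stroma and infiltrating leukocytes were read together and fewer cells of a type cannot be told apart from less RNA per cell.

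All mice were female BALB/c of 8 to 10 weeks, and treatment began when tumors measured 20 to 25 mm2. The PBS group (n = 4) received vehicle. The ICB group (n = 5) received immune checkpoint blockade, namely anti-CTLA-4 once and anti-PD-L1 on 3 occasions, at 100 µg per injection. The 5-FU group (n = 5) received 75 mg/kg of 5-fluorouracil, and the 5-FU+ICB group (n = 5) received both treatments. All tumors were taken at day 7, each from a separate mouse, so the p-values below describe the spread between tumors of 1 line in 1 strain.

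5-fluorouracil is an antimetabolite that inhibits thymidylate synthase and is built into RNA and DNA. Antibodies to CTLA-4 and PD-L1 release T cells from inhibition, and activated T cells secrete IFN-γ, which acts on surrounding cells to induce antigen presentation genes, guanylate-binding proteins (GBPs) and PD-L1 itself. Cholesterol synthesis enzymes are controlled together by the sterol-sensing SREBP factors and are high in growing cells.

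The interaction was expressed on a log2 scale. A value of 0 means that the fold changes of the 2 treatments multiply, so that the expected level in 5-FU+ICB tumors is the ICB level times the 5-FU level divided by the PBS level. A negative value means that 5-FU+ICB tumors fell below this expectation and a positive value that they lay above it. Neither says by itself that the combination differed from ICB or from 5-FU.

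Total counts ranged from 23541733 to 33950805 per tumor, at which 3 counts correspond to 0.0884 to 0.127 CPM, the counts scaled by library size. The pan-leukocyte gene Ptprc was at 68.3 to 109.5 CPM in PBS, 242 to 435.5 in ICB, 93.5 to 329 in 5-FU and 99.95 to 729.5 CPM in 5-FU+ICB tumors. Tumors 2 and 5 of the 5-FU+ICB group stood apart from the others, with a mean correlation with their own group of 0.905 and 0.896 against 0.948 to 0.978 elsewhere. Tumor 2 had the lowest Ptprc of its group, and tumor 5 had the highest together with a mitochondrial share of 16.1% of counts, against 1.53% to 6.80% in all other tumors. Of 8 mesothelial and tumor cell markers, Upk3b, Lrrn4 and Krt18 did not pass the filter, and the summed level of the 8 was 259 to 376 CPM in PBS, 56.5 to 215 in ICB, 47.1 to 175 in 5-FU and 37.6 to 161 CPM in 5-FU+ICB tumors. In 5-FU+ICB tumor 5 that sum came from Krt19 at 49.4 and Krt8 at 33.7 CPM, while Msln, the mesothelin gene, was at 0.505 CPM there against 33.7 to 372.5 CPM in all other tumors.

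The promoters of Gbp5 and Gbp7 are shown because GBPs made up 8 of the 14 genes called below the expectation, and that of Nsdhl because it had the larger of the 2 positive interactions. Each is the RefSeq window of 300 bases on GRCm38.p6, 250 before to 50 after the annotated start, written 5′ to 3′ on the plus strand, which is the coding strand of all 3 genes. Capitals in Gbp5 (chr3:142496684-142496983) and Gbp7 (chr3:142530086-142530385) mark the interferon-stimulated response element (ISRE), GAAA, any 2 bases and GAAA again on either strand, and the gamma-activated site (GAS), TTCNNNGAA, which reads the same on both strands. Capitals in Nsdhl (chrX:72918271-72918570) mark the CCAAT box on either strand. No marked sites overlap.
Gbp5: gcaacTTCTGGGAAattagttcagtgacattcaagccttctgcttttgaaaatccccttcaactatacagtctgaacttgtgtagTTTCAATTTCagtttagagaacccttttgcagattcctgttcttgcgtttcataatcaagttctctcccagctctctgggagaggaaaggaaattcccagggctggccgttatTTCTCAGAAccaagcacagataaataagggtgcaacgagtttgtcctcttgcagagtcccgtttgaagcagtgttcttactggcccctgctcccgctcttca
Gbp7: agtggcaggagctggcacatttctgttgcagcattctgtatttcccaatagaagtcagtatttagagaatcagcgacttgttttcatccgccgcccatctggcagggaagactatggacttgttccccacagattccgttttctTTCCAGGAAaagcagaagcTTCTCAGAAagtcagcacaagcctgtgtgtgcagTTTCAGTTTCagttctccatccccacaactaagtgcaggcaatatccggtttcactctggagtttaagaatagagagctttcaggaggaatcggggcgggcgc
Nsdhl: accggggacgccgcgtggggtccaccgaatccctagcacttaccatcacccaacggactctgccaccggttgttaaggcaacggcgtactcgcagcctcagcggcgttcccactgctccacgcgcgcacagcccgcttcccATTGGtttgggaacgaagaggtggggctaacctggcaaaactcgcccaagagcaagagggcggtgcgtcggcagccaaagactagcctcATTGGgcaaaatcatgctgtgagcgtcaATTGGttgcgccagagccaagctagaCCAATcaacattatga

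Both Gbp windows held 1 ISRE and 2 GAS sites, and the Nsdhl window held 4 CCAAT boxes. Among all 32851 windows, 3.44% held an ISRE, 8.30% a GAS and 37.4% a CCAAT box. Counted by gene, all 5 GBPs with a window held an ISRE, against 3.99% of 27025 genes. Only 2 of these 5, the 2 shown, held a GAS, against 9.55% of genes. A CCAAT box was found in 15 of 16 cholesterol synthesis genes with a window, against 41.1% of genes. Gbp4, Gbp6, Gbp8, Gbp9, Gbp10, Gbp11, Fdps, Fdft1 and Sqle had no entry.

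In edgeR's quasi-likelihood test, 16 genes had an interaction with adjusted p below 0.05 and an absolute log2 value above 0.5. Of these, 14 were negative, which is 0.0781% of the genes tested, and 2 were positive, which is 0.0112%. The negative genes included Nos2, AC119228.1, Gbp8, C4a, Gbp4, Cd274, Gbp5, Gbp11, Gbp10, Gbp7, Gbp6, Gm43302 and Gbp9, and the positive ones were Nsdhl and Pmvk. The GBP genes, 8 in number, and the predicted gene Gm43302, which spans Gbp6 and Gbp10, thus made up 9 of the 14.

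All 16 adjusted p-values lay between 0.0471 and 0.0496, directly under the threshold, and 1770 genes had an adjusted p below 0.1 (1150 positive and 620 negative). An unadjusted p below 0.05 was reached by 2651 genes with a positive interaction (14.8%) and by 1632 with a negative one (9.11%). DESeq2 called 867 positive genes (5.38% of 16114) and 675 negative genes (4.19%), and all 16 edgeR calls were among them. In counts simulated with 200 changed genes, 18.1% of DESeq2 calls and 6.9% of edgeR calls were unchanged genes. With no changed gene simulated, DESeq2 called 4 genes and edgeR 0. For 29.5% of genes the 95% interval lay within 1 of 0 on the log2 scale.

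The count of calls depended on single tumors. No gene was called without PBS tumor 1 or 2, ICB tumor 1, 2 or 4, 5-FU tumor 2, 3 or 5, or 5-FU+ICB tumor 1, 2, 3 or 5, although 3332 to 4693 genes had an unadjusted p below 0.05 in these 12 fits. The counts were 7 without ICB tumor 3, 1 without ICB tumor 5, 8 without 5-FU tumor 1, 81 without 5-FU tumor 4, 950 without 5-FU+ICB tumor 4, 1017 without PBS tumor 4 and 1698 without PBS tumor 3. With both 5-FU+ICB tumors 2 and 5 left out, a setting chosen after their values were seen, 0 genes were called by edgeR and 3513 had an unadjusted p below 0.05. Over all 19 omissions, Gbp4 kept an interaction of -2.90 to -2.34, Cd274 of -2.84 to -2.37, Nos2 of -4.84 to -3.84, Nsdhl of 1.32 to 1.58 and Pmvk of 1.01 to 1.28.

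**Figure D1:**
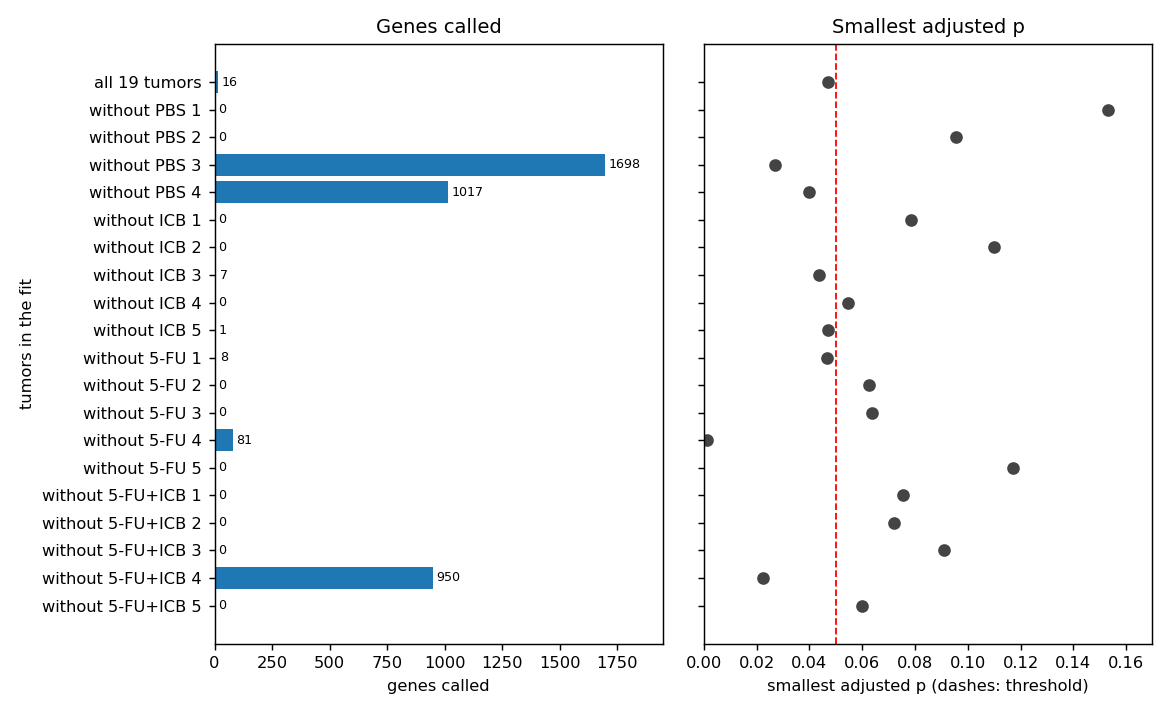
Genes called for the interaction (left, bars) and the smallest adjusted p over all genes (right, points, dashes at 0.05), with all 19 tumors and with each tumor left out of the edgeR fit. The smallest adjusted p moved between 0.000974 and 0.153, and the count of calls between 0 and 1698.

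Genes below the multiplicative expectation rose with either treatment given alone. All 14 were called higher in ICB than in PBS tumors, by 2.05 to 7.78 on the log2 scale, where 19% of all genes were called higher, and all 14 were called higher in 5-FU than in PBS tumors, by 1.38 to 3.34, where 9.98% were. Between 5-FU+ICB and ICB tumors none of the 14 was called, and their differences ran from -1.75 to 0.07 on the log2 scale, in a comparison in which 0.229% of genes were called. Between 5-FU+ICB and 5-FU tumors none was called either, with differences of 0.51 to 3.42 in a comparison that called 0.0112% of genes, although 12 of the 14 had an unadjusted p below 0.05. The interaction and these comparisons are computed from the same 19 tumors, so they are not separate evidence. For 5-FU+ICB against ICB and against 5-FU the study, using DESeq2, reported more differentially expressed genes, and DESeq2 was not run on them here.

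GBPs are interferon-induced GTPases that attack the membranes of intracellular pathogens. Gbp4 (chr5:105115767-105139586) was at 46.9, 63.8, 58.3 and 57.2 CPM in PBS tumors 1 to 4 and at 877, 968, 719.6, 977 and 813 CPM in ICB tumors 1 to 5. It was at 189.5, 260.2, 551, 107 and 386 CPM in 5-FU tumors 1 to 5 and at 757, 668, 814, 825 and 521 CPM in 5-FU+ICB tumors 1 to 5. Every treated tumor was above every PBS tumor, the 5-FU tumors spread over the widest range, and the 5-FU+ICB tumors overlapped both the ICB tumors and the highest 5-FU tumor. The multiplicative expectation was 4601 CPM and the fitted 5-FU+ICB level 717 CPM, or 15.6% of it, an interaction of -2.68 ± 0.44 (SE, adjusted p = 0.0471, edgeR).

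Gbp5 (chr3:142493978-142522344) followed the same order, with means of 17.2 ± 4.18 CPM in PBS (SD, n = 4), 289 ± 61.7 in ICB, 92.6 ± 55.6 in 5-FU and 257 ± 27.5 CPM in 5-FU+ICB tumors (n = 5 each). Its interaction was -2.59 and that of its chromosome 3 neighbor Gbp7 was -2.08. On chromosome 5, Gbp8 was at -2.93, Gbp11 at -2.40, Gbp10 at -2.17, Gbp6 at -1.97, Gm43302 at -1.91 and Gbp9 at -1.31. The remaining members, Gbp2b at -2.42 (adjusted p = 0.0621), Gbp2 at -2.09 (0.0657) and Gbp3 at -1.90 (0.0657), did not pass. All 11 GBPs thus lay below 0, with a median of -2.17 against 0.03 over all genes, in a list drawn up after their values were seen. Gbp8 overlaps Gbp4 and Gbp9 in the GENCODE M21 annotation, and GBP sequences are similar, so the estimated counts of single members are uncertain and the 9 calls are not 9 separate measurements.

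Cd274 (chr19:29367455-29388095) encodes PD-L1, the ligand that 1 of the antibodies binds. It was at 9.94, 12.4, 12.3 and 12.1 CPM in PBS tumors 1 to 4 and at 163, 261, 150.5, 157 and 201 CPM in ICB tumors 1 to 5. It was at 32.8, 51.4, 79.6, 16.5 and 61.7 CPM in 5-FU tumors and at 140.2, 99.8, 127, 144 and 114 CPM in 5-FU+ICB tumors. The groups were fully separated, in the order PBS, 5-FU, 5-FU+ICB and ICB, so that each 5-FU+ICB tumor was above each 5-FU tumor and below each ICB tumor. The interaction was -2.62 ± 0.43 (SE, adjusted p = 0.0471, edgeR), and the combination reached 16.2% of an expected 771 CPM. AC119228.1 lies antisense within Cd274 and was at 1 to 6 counts per PBS tumor. Its interaction of -4.20 cannot be told apart from reads of Cd274, since the counting is not stated to have used strand.

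Nos2 encodes the inducible nitric oxide synthase of activated macrophages. It was at 0.945, 0.811, 2.67 and 1.32 CPM in PBS tumors 1 to 4 and at 167, 460.3, 229.8, 272 and 464 CPM in ICB tumors 1 to 5. It was at 6.45, 7.405, 19.6, 2.19 and 8.69 CPM in 5-FU tumors and at 105, 43.0, 81.9, 202 and 41.35 CPM in 5-FU+ICB tumors. Only 5-FU tumor 4 fell within the PBS range, and 5-FU+ICB tumor 4 was the only 1 of its group to exceed an ICB tumor. The interaction, -4.36 ± 0.80 (SE, adjusted p = 0.0484, edgeR), had the largest size of the 16, and the combination reached 4.88% of the expected 1942 CPM.

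C4a, a complement C4 copy, was also called negative. C4a was at 1.31 to 2.93 CPM in PBS, 14.4 to 32.8 in ICB, 10.5 to 24.7 in 5-FU and 11.6 to 32.1 CPM in 5-FU+ICB tumors, an interaction of -2.83 ± 0.51 (SE). Its 3 treated groups overlapped one another and none overlapped PBS. C4b, with which C4a can share reads, was at -2.63 (adjusted p = 0.0621, edgeR).

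**Figure D2:**
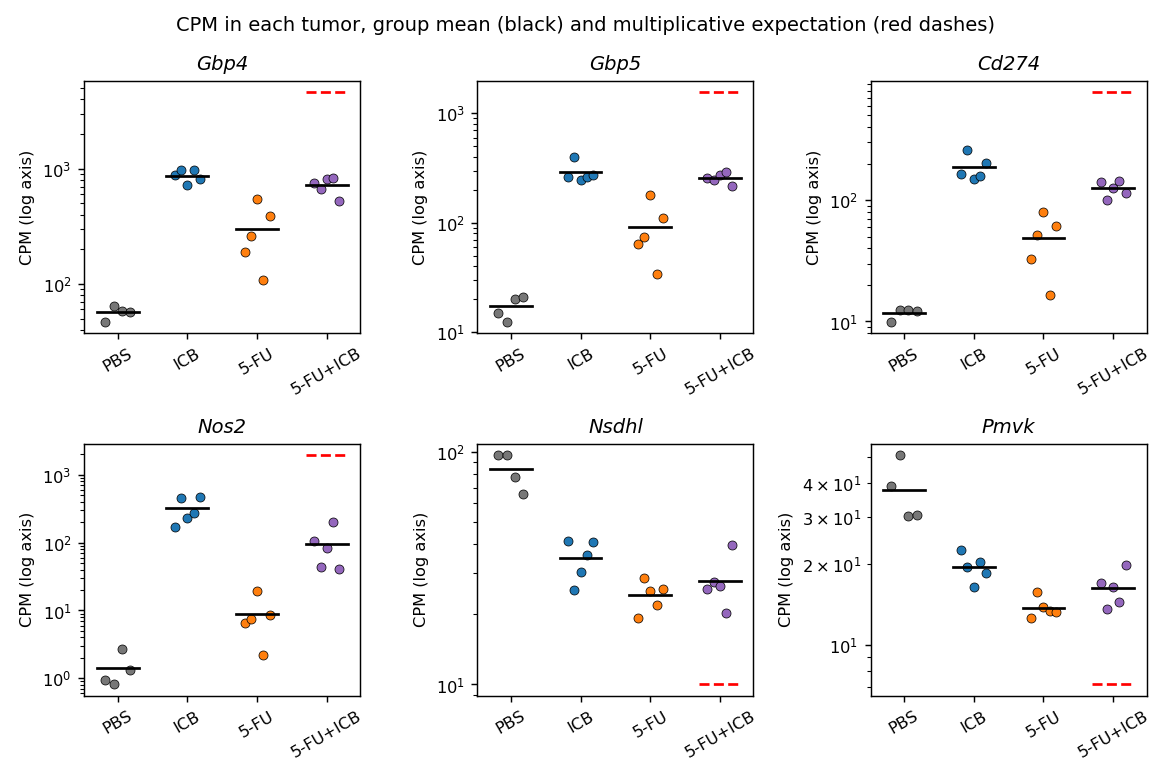
CPM on a log axis in each tumor (points) of the PBS, ICB, 5-FU and 5-FU+ICB groups for 4 negative calls and both positive calls, with group means (black lines) and the level expected in 5-FU+ICB tumors if fold changes multiplied (red dashes). The combination tumors of Gbp4, Gbp5, Cd274 and Nos2 sit below the dashes and those of Nsdhl and Pmvk above them.

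The 2 genes above the expectation encode enzymes of cholesterol synthesis. Both were called lower in ICB and in 5-FU than in PBS tumors, where 18.8% and 13% of all genes were called lower, and neither was called between 5-FU+ICB and either single treatment. Nsdhl, a sterol dehydrogenase (chrX:72918557-72958514), was at 96.7, 96.7, 77.8 and 65.9 CPM in PBS tumors 1 to 4, at 41.35, 25.5, 30.3, 36.0 and 41.1 CPM in ICB tumors, at 19.3, 28.6, 25.3, 22.0 and 25.8 CPM in 5-FU tumors and at 25.65, 27.5, 26.5, 20.4 and 39.6 CPM in 5-FU+ICB tumors. Every treated tumor was below every PBS tumor, and the 3 treated groups overlapped. The interaction was 1.48 ± 0.26 (SE, adjusted p = 0.0484, edgeR), the combination being at 279% of an expected 10.0 CPM.

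Pmvk, phosphomevalonate kinase (chr3:89454541-89469013), was at 39.2, 50.9, 30.3 and 30.4 CPM in PBS tumors and at 22.6, 19.6, 16.5, 20.4 and 18.6 CPM in ICB tumors. It was at 12.6, 15.8, 13.9, 13.4 and 13.25 CPM in 5-FU tumors and at 16.99, 13.6, 16.4, 14.5 and 19.8 CPM in 5-FU+ICB tumors. The 5-FU tumors lay below all ICB tumors, and the 5-FU+ICB tumors overlapped both. The interaction was 1.19 ± 0.22 (SE, adjusted p = 0.0484, edgeR).

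The other enzymes of the pathway were then listed, after these values were seen, so the list describes and does not test. All 21 had a positive interaction with an unadjusted p below 0.05, against 14.8% of all genes, the median being 1.16 and the range 0.53 to 1.53. In the order of the pathway they began with Acat2 at 1.40 and Hmgcs1 at 0.86, continued with Mvk at 1.14 and Mvd at 1.35 of the mevalonate steps, Fdps at 1.33, the squalene synthase Fdft1 at 1.53 and the squalene epoxidase Sqle at 1.16, and ended with Dhcr7 at 0.53. Fdft1, Mvk (both adjusted p = 0.0621, edgeR) and Mvd (0.0657) were the nearest to a call. Among 8 sterol sensing and uptake genes only Insig1 at 1.29 and Stard4 at 1.12 had an unadjusted p below 0.05, while the regulators Srebf1 at -0.02 and Scap at -0.05 were close to 0. Of 7 genes that respond to the sterol receptor LXR, 4 were negative at this level, against 9.11% of all genes, with the cholesterol exporters Abca1 at -2.63 and Abcg1 at -2.79 at the front. These 2 added lists had medians of 0.40 (0.14 without 5-FU+ICB tumor 2) and -1.24.

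**Figure D3:**
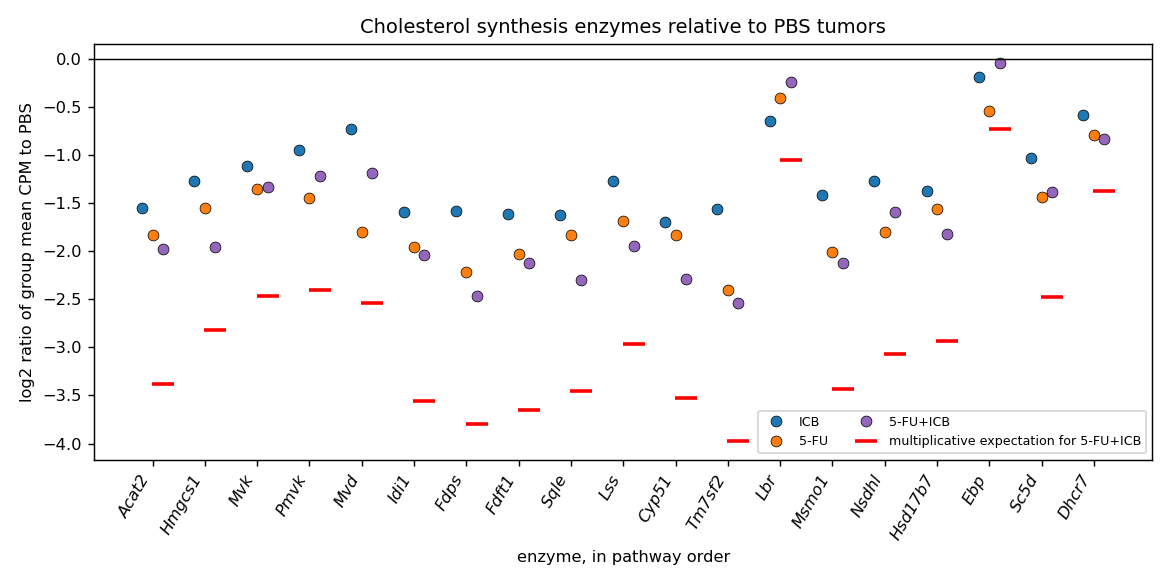
Ratio of group mean CPM to the PBS mean on a log2 scale for 19 of the 21 cholesterol synthesis enzymes in pathway order, in ICB, 5-FU and 5-FU+ICB tumors (points), with the multiplicative expectation for the combination (red dashes). The 5-FU+ICB point lies above its dash for all 19 enzymes, the interaction ranging from 0.53 to 1.53.

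Each direction was filled to 15 genes in order of unadjusted p, which took 13 positive and 2 negative genes, and none of them passed the threshold. The split follows from the 2 positive calls, and negative genes with as small a p are not in this fill. On the negative side these were Per1, a clock gene, at -1.81 (adjusted p = 0.0577, edgeR) and Hk3, a hexokinase of myeloid cells, at -2.65 (0.0621). On the positive side, beside the mevalonate enzymes, they were the securin Pttg1 at 1.20, the N-acetyltransferase Naa10 at 1.13 and the Notch target Hes1 at 1.502 (all 0.0621), then the histone variant H2afx at 1.02 and Bola3, of iron-sulfur cluster assembly, at 0.95 (both 0.0637). The respiratory complex I subunit Ndufa12 at 0.90, the RNA-binding Lsm5 at 1.36, the ribosomal proteins Rpl28 at 1.02 and Mrps15 at 0.75 and the transketolase Tkt at 0.84 followed (all 0.0657). Each of these had its highest group mean, or for Per1 and Hk3 its lowest, in PBS tumors.

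Ribosomal protein genes were listed after Rpl28 and Mrps15 had been seen and are described only. Of 82 cytosolic ribosomal proteins, 76 were positive with an unadjusted p below 0.05, the median being 1.12. Of 75 mitochondrial ribosomal proteins, 73 were, with a median of 0.82. Over all genes tested, 14.8% were positive at this level. None of either list was called by edgeR, while DESeq2 called 57 and 47 of them as positive, against 5.38% of all genes. The cytosolic median was 0.83 without 5-FU+ICB tumor 5, the lowest over all omissions. For the interaction of cisplatin with ICB, which shares the PBS and ICB tumors, the medians were 1.06 and 0.91.

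**Figure D4:**
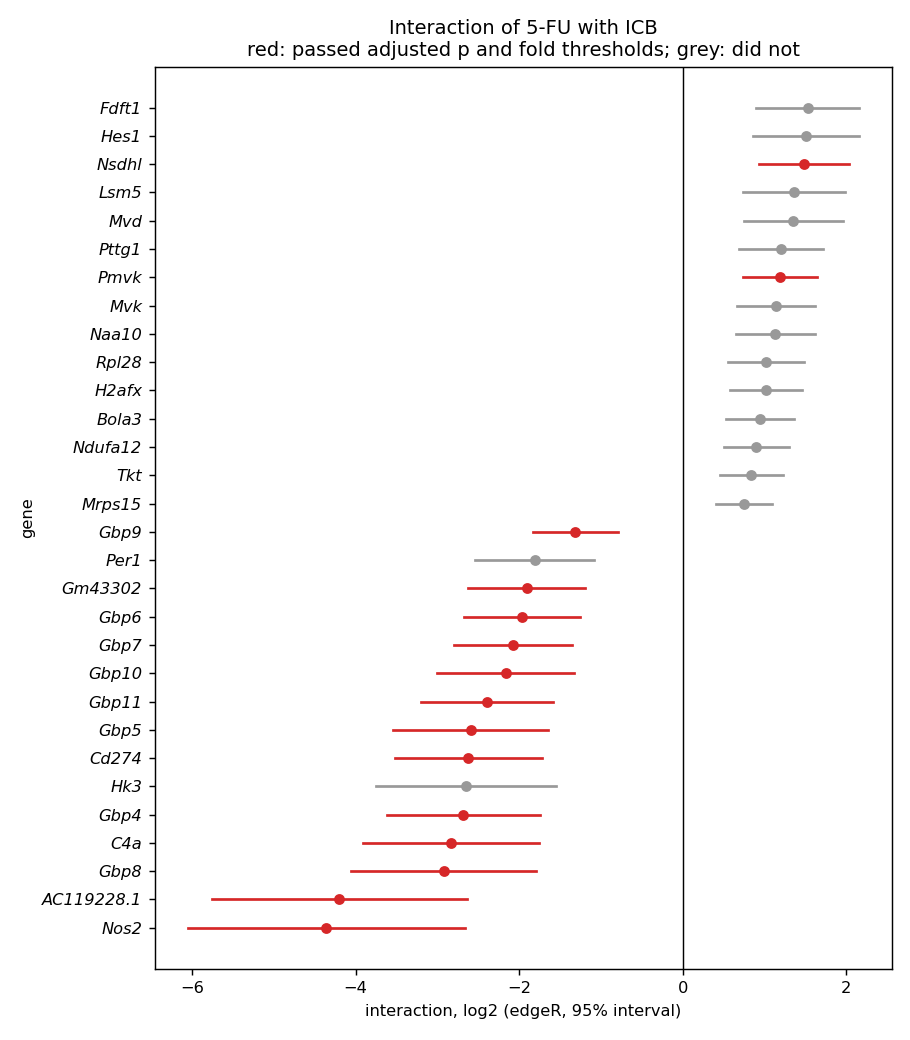
Interaction on the log2 scale (points) with its 95% interval (lines) for 15 called genes (red) and 15 genes that did not pass (grey), taken by unadjusted p to fill each direction to 15, which gave 13 positive and 2 negative ones, from edgeR. The negative values run from -4.36 for Nos2 to -1.31 for Gbp9 and the positive ones from 0.75 for Mrps15 to 1.53 for Fdft1.

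IFN-γ and its response genes were mostly negative. Of 28 IFN-γ response genes, 7 were called (Nos2, Cd274 and 5 GBPs), all negative, and 24 in all had an unadjusted p below 0.05, against 9.11% of all genes in that direction. The list median was -1.64. Ifng itself, the cytokine, was at 5 to 12 counts per PBS tumor and had an interaction of -3.22 (adjusted p = 0.0621, edgeR). Type I interferon-stimulated genes had 0 calls, 5 of 20 negative at the unadjusted level and a median of -0.50 (-0.32 without PBS tumor 2), led by Zbp1 at -0.98, Oasl2 at -1.17 and Ifit2 at -0.85.

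Antigen presentation genes had no call by edgeR. MHC class II presentation had a median of -2.05, with 8 of 12 genes negative at an unadjusted p below 0.05, among them the class II transactivator Ciita at -2.95, the invariant chain Cd74 at -2.93 and the peptide exchanger H2-DMa at -1.96. MHC class I presentation had a median of -0.57, or -0.21 without 5-FU tumor 3, and 4 of 12 genes at this level, led by the transporter subunit Tap2 at -1.09, its partner tapasin Tapbp at -1.26 and the trimming peptidase Erap1 at -0.87. Adjusted p-values of these genes were 0.0665 or higher. Over all genes, 9.11% were negative at this unadjusted level. DESeq2 called 3 class II and 4 class I genes, all negative, against 4.19% of all genes.

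T cell genes did not pass. Cd8a was at 4.03 to 5.58 CPM in PBS, 63.2 to 182 in ICB, 5.18 to 76.3 in 5-FU and 10.9 to 307 CPM in 5-FU+ICB tumors, the last range covering that of ICB. Its interaction was -1.96 with a 95% interval of -4.03 to 0.11 (adjusted p = 0.233, edgeR). On the linear scale, where additive effects give 0, the same contrast of Cd8a was 19.5 CPM (adjusted p = 0.881, limma), so that its sign depended on the scale. Of 16 genes of the T cell receptor complex none reached an unadjusted p below 0.05, and the median was -0.82, or -0.16 without 5-FU tumor 3 and -1.40 without 5-FU+ICB tumor 5, with Cd28 at -1.94 and Cd6 at -1.52 among the nearest.

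Cytotoxic effector genes had a median of -1.25, with 4 of 13 negative at the unadjusted level, against 9.11% of all genes, including perforin Prf1 at -2.03 (adjusted p = 0.0668, edgeR) and granzyme Gzmb at -1.12 (0.0862). Checkpoint receptors and ligands had a median of -1.43, with Cd274 called and 5 of 12 negative at the unadjusted level, including the PD-1 ligand Pdcd1lg2 at -3.32 (0.0706) and the receptor Havcr2 at -1.21 (0.122). The receptors Pdcd1 at -1.60 (0.394), Ctla4 at -0.90 (0.482) and Icos at -1.58 (0.239) and the regulatory T cell factor Foxp3 at -0.98 (0.346) had wide intervals. On the linear scale Pdcd1, Icos and Foxp3 turned positive, none of them passing. Il2 did not pass the low-count filter.

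Complement and inflammation genes were also mostly negative, with no call by edgeR in either list, the called C4a not being a member of the complement list. Of 18 complement genes, 13 had a negative interaction at an unadjusted p below 0.05, against 9.11% of all genes, with a median of -1.73, C3, the central component, at -4.02 (adjusted p = 0.0657) and the receptor C3ar1 at -1.87 (0.0668). C3 was at 27.0 to 67.7 CPM in PBS, 930.1 to 4408 in ICB, 350.1 to 2863 in 5-FU and 658 to 5046 CPM in 5-FU+ICB tumors, and its 3 treated groups overlapped. Of 30 IL-1, TNF and NF-κB genes, 16 were negative at this level, with a median of -0.94, the chemokines Ccl3 at -3.78 and Ccl4 at -3.10, Tnf at -2.93 and Il1b at -2.47. Il6 was at -0.75 (adjusted p = 0.692).

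Immediate-early genes encode transcription factors induced within minutes of a stimulus. Their median was -1.40, and 12 of 23 were negative at an unadjusted p below 0.05, against 9.11% of all genes, led by Atf3 at -3.19, Egr2 at -2.80 and Klf4 at -2.40 (adjusted p = 0.0665, 0.0673 and 0.0682, edgeR). The list's median change was 0.69 for ICB against PBS and 1.71 for 5-FU against PBS on the log2 scale, and it was 0.24 for 5-FU added to ICB. The 5-FU tumors were uneven, as Fos was at 29.1, 299, 81.7, 66.5 and 251 CPM in tumors 1 to 5 against 24.0 to 40.4 CPM in PBS, and Fosb was at 21.4, 1237, 583, 414.5 and 1239 CPM against 5.25 to 14.6 CPM. Tumor 1 was nearest to the PBS level and tumors 2 and 5 were the highest. Both genes were named after their values were seen. Atf3 was at 4.45 to 8.36 CPM in PBS, 26.2 to 67.8 in ICB, 6.80 to 62.7 in 5-FU and 8.97 to 60.5 CPM in 5-FU+ICB tumors.

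Proliferation genes tended above the expectation, with no call by edgeR. Of 23 DNA replication and fluoropyrimidine genes, 11 were positive at an unadjusted p below 0.05, against 14.8% of all genes, with a median of 0.71. They were led by the helicase subunit Mcm5 at 0.99, the dUTPase Dut at 1.22 and thymidylate synthase Tyms, the target of 5-FU, at 1.08 (adjusted p = 0.0697, 0.0706 and 0.0780, edgeR). Tyms was at 65.2 to 134 CPM in PBS, 24.6 to 53.6 in ICB, 44.7 to 66.9 in 5-FU and 37.9 to 69.1 CPM in 5-FU+ICB tumors. Of 20 mitotic genes, 7 were positive at this level with a median of 0.71 (0.41 without 5-FU+ICB tumor 2), led by Nusap1 at 1.07, Ccnb2 at 1.21 and Birc5 at 1.00, while Mki67 was at -0.06 (adjusted p = 0.965). Of 24 p53 targets, 5 were positive and 1 negative at this level, with a median of 0.37 (0.17 without 5-FU+ICB tumor 2), Susd6 being at -0.52, Ei24 at 0.50 and Bbc3 at 0.65.

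Hypoxia and metabolic lists lay near 0 with members on both sides. HIF-1 targets had a median of -0.03, which ran from -0.11 to 0.04 over the 19 omissions and changed sign in 8 of them. At an unadjusted p below 0.05, 4 of 23 were positive and 1 negative, near the 14.8% and below the 9.11% of all genes. The mTOR inhibitor Ddit4 was at 1.49 (adjusted p = 0.0697, edgeR), Fam162a at 0.77 and Higd1a at 0.80. Glycolytic enzymes had a median of 0.26, with Pgk1 at 0.69 and Ldha at 0.65 above and Hk2 at -1.27 below 0. Pgk1 was at 624 to 1240 CPM in PBS, 738 to 928 in ICB, 313 to 391 in 5-FU and 446 to 587 CPM in 5-FU+ICB tumors, so that every tumor given 5-FU was below every tumor not given it. The subunits Hif1a at -0.66 and Arnt at -0.26 did not pass.

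Lists of fatty acid, matrix and osteoclast genes had no call. PPAR and fatty acid oxidation genes had a median of -0.23, with Rxra at -1.17, Acadm at 0.49, Acadl at 0.43, Pparg at -0.23 and Ppargc1a at 0.17. Collagens and matrix genes had a median of -0.28, or -0.45 without PBS tumor 3 and -0.04 without PBS tumor 2, with Sparc at 0.66, Lox at -0.87 and Col1a1 at -0.69. Osteoclast genes had a median of 0.39, with Acp5 at 1.30, Atp6v0d2 at 0.79 and Tnfrsf11a at -0.42, and Csf1, the macrophage growth factor, was at -0.18. No adjusted p in these 3 lists was below 0.1. The fatty acid median was -0.44 without 5-FU+ICB tumor 5. It turned to 0.11 without ICB tumor 3, and the osteoclast median to -0.14 without 5-FU+ICB tumor 2.

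**Figure D5:**
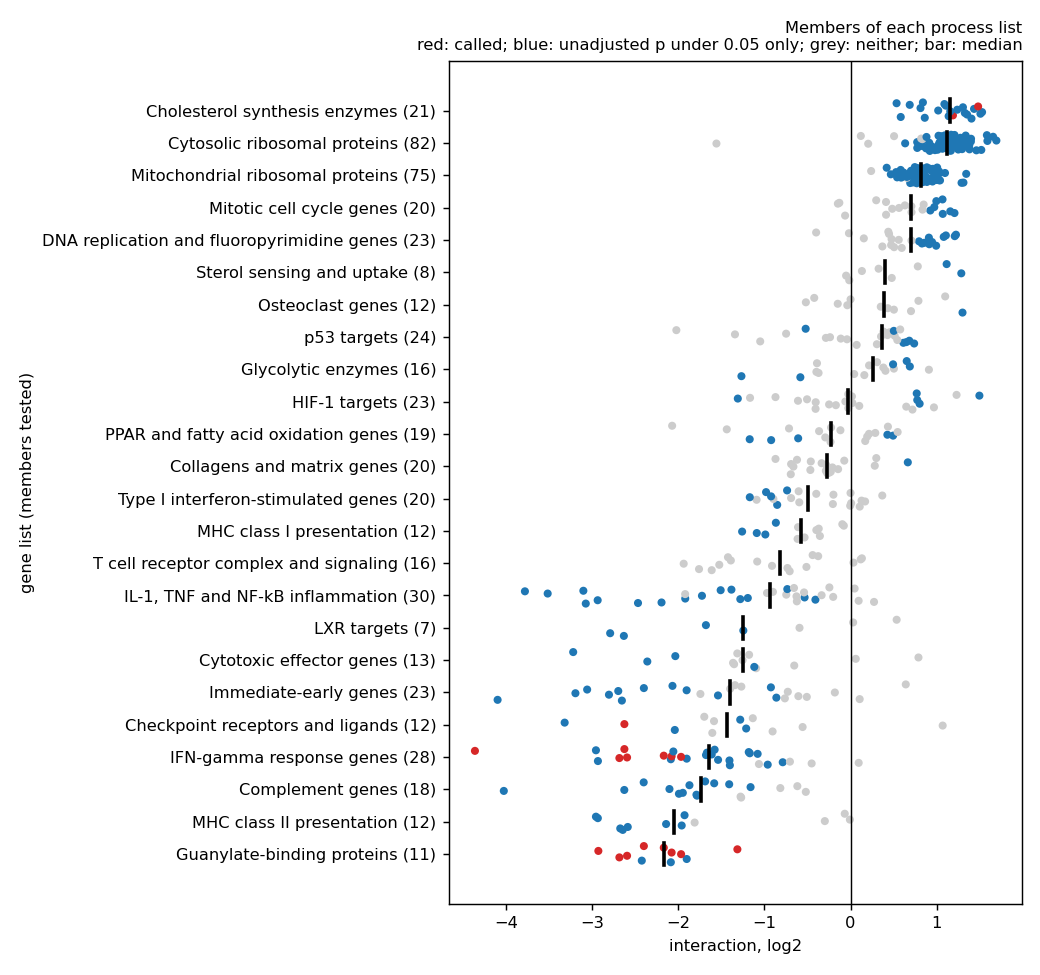
Interaction on the log2 scale of each tested member of the process lists (points), ordered by list median (black bars), with called genes in red and genes with an unadjusted p below 0.05 in blue. GBPs, complement, MHC class II and IFN-γ response genes lie mostly below 0, and cholesterol synthesis enzymes and ribosomal proteins mostly above it.

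Cell type markers moved with these lists, and their part in the result was not tested. The 7 macrophage markers summed to 1070 to 1860 CPM in PBS, 2540 to 6300 in ICB, 1400 to 4720 in 5-FU and 1160 to 4940 CPM in 5-FU+ICB tumors, with 4 of 7 negative at an unadjusted p below 0.05, against 9.11% of all genes, and a median interaction of -1.27. The 2 CD8 T cell markers summed to 7.18 to 9.97 CPM in PBS, 87.2 to 310 in ICB, 9.29 to 130 in 5-FU and 17 to 631 CPM in 5-FU+ICB tumors, with a median of -1.59 and none at that level, the median being -0.68 without 5-FU tumor 3 and -2.16 without 5-FU+ICB tumor 5. Neutrophil markers summed to 8.49 to 19.2, 58.6 to 170, 14.5 to 64.5 and 7.93 to 71.8 CPM in the same order, with a median of -1.79 over the 5 of 6 that passed the filter, or -2.69 without PBS tumor 2. Ptprc itself was at -0.94 (adjusted p = 0.324, edgeR). A setting relative to Ptprc also replaced edgeR by limma. As limma-voom without that step called 0 genes too, its lack of calls cannot be assigned to the change of scale. When each gene was taken relative to Ptprc, a setting chosen after the data were seen, no gene was called by limma, 4006 had an unadjusted p below 0.05 and the median over all genes was 1.03 in place of 0.03. The GBP list then had a median of -1.06, the IFN-γ list of -0.53 and the cholesterol list of 2.18, each on a scale that had moved by that amount for all genes alike. The T cell receptor, type I interferon and MHC class I lists, with medians between about -1 and 0, turned positive on that scale, as its shift alone can do. The NK cell list, at -0.84, stayed at -0.05. The skeletal muscle list, at -1.43, went to 1.74 and the skin list, at -3.24, to 1.13, which exceeds that shift.

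Other marker lists had medians of -1.30 for CD4 and regulatory T cells, -0.84 for NK cells, -0.45 for monocytes, -0.21 for dendritic cells, -1.44 for mast cells, -0.39 for fibroblasts and -0.15 for endothelial cells, with no member called. At an unadjusted p below 0.05, 2 of 4 CD4 and regulatory T cell and 2 of 7 dendritic cell markers were negative, against 9.11% of all genes. So were 1 of 4 monocyte and 1 of 5 mast cell markers. No NK cell, fibroblast or endothelial marker reached that level. Without 5-FU tumor 3 the monocyte median was -0.03, the CD4 one -0.84 and the fibroblast one -0.19, and without 5-FU+ICB tumor 5 the monocyte median was -1.05, the dendritic cell one -0.88 and the endothelial one -0.62. The fibroblast median was -0.65 without ICB tumor 4. The dendritic cell median turned to 0.02 without 5-FU+ICB tumor 2 and the endothelial one to 0.03 without 5-FU tumor 3. B and plasma cell markers had a median of 1.74 that came from 5-FU+ICB tumor 5, where Cd79a was at 290.2 CPM against 3.08 to 38.3 CPM in all other tumors, and the median was -1.62 without it. The mesothelial list likewise went from 0.76 to -0.63 without that tumor, in which Krt8 was at 33.7 CPM. Its median was 1.36 without ICB tumor 3, and -0.19 from group means of log2 CPM with a prior count of 2. Skeletal muscle, skin and adipocyte markers, which mark tissue beside the tumor, and erythroid markers, which mark blood, had medians of -1.43, -3.24, -0.89 and -0.65 with no member at an unadjusted p below 0.05, and each of these medians changed sign when 1 tumor was left out, to 1.59 without ICB tumor 3, 0.57 without ICB tumor 2, 0.64 without ICB tumor 3 and 1.15 without 5-FU tumor 5. They were also positive, at 0.71, 0.10, 0.79 and 0.36, when computed from group means of log2 CPM with a prior count of 2.

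The null of the interaction depends on the scale. On linear CPM, where 0 means that differences from PBS add, limma called 25 of 17916 genes, 20 of them positive, and Nsdhl was the only 1 shared with the 16. Cholesterol synthesis enzymes made up 11 of the 25, among them Fdft1 at 89.9 CPM and Nsdhl at 53.2 CPM (adjusted p = 0.0171 each). The additive expectation of all 11 was below 0, a level no tumor can have, for example -58.6 CPM for Fdft1. Gbp4 was 396 CPM below its additive expectation of 1113 CPM (adjusted p = 0.109) and Cd274 98.2 CPM below 223 CPM (0.102), so both kept their sign and did not pass. Per1, Hk3, H2afx, Hes1, Rpl28 and Tkt, which had fallen short on the log scale, were called on the linear scale with the same sign.

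Whether ICB acted differently after 5-FU than after cisplatin was asked over all 28 tumors, with the 9 cisplatin and cisplatin+ICB tumors in the fit. No gene was called by edgeR (0% of 18521), 424 had an unadjusted p below 0.05, and DESeq2 called 1, Cldn3, named after it was seen, at a mean of 4.75 counts. The difference was -1.42 for Gbp4 with a 95% interval of -2.79 to -0.04, -1.55 for Cd274 (-2.89 to -0.21), -2.93 for Nos2 (-5.43 to -0.43) and 0.79 for Nsdhl (-0.05 to 1.63), all with adjusted p = 1 (edgeR). These genes were chosen by their interaction in the same 5-FU and 5-FU+ICB tumors, so their intervals do not test a difference between the drugs. The interaction of cisplatin with ICB itself, which shares the PBS and ICB tumors, was -1.24 for Gbp4, -1.05 for Cd274, -1.40 for Nos2 and 0.69 for Nsdhl in the same fit, where 0 genes were called by edgeR, 2 by DESeq2 and 1696 had an unadjusted p below 0.05. Its list medians were close to those of 5-FU for ribosomal proteins (1.06 cytosolic, 0.91 mitochondrial), DNA replication (0.63) and cytotoxic genes (-1.26). They were smaller in size for GBPs (-0.99), cholesterol enzymes (0.67), IFN-γ response (-0.90) and immediate-early genes (-0.31).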

How the data were processed

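The authors assigned reads to GRCm38/mm10 transcripts with kallisto (0.46.0 in the submitters' processing notes) and deposited estimated counts per gene from tximport, without normalization, in 2 matrices that share 9 PBS and ICB tumors with identical values. In the 5-FU matrix 23.4% of these estimated counts were not whole and were rounded. Of 55341 gene names, 26 had been turned into dates and are not named here. Total counts per tumor had group medians of 27155858 to 29776043.

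Low counts were removed by filterByExpr, library scaling was by TMM, and glmQLFit of edgeR 4.0.16 under R 4.3.3 fitted 4 groups without a covariate, and p-values were adjusted by the Benjamini-Hochberg method. Standard errors came from the F statistic, and CPM are TMM-scaled. A call needed adjusted p below 0.05 and an absolute log2 value above 0.5. The comparison with cisplatin was fitted over all 6 groups. DESeq2 1.42.0 and limma 3.58.1 gave alternatives. The procedure was tested on simulated data.

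Named genes were up to 15 calls per direction with a mean count of at least 50, filled to 15 by unadjusted p, up to 5 DESeq2 calls per direction by size, the 3 members of each process list with the smallest p, and genes the study discusses. Predicted genes were only counted, except Gm43302, which was named after its value was seen. The other GBP, cholesterol, sterol and LXR genes were also named after their values were seen. Cell marker lists are given by counts and summed levels. The members and lists were chosen with earlier results of these data known. The alternatives tried were other tests, normalizations, filters, thresholds and scales, a replicate block, and each tumor left out.

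Same-numbered tumors came from different mice. Promoter windows matched by gene symbol, and the CCAAT box was added to the motifs after the genes were seen. Some genes, called ones included, are not reported here.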

Additional observations from a re-analysis of the deposited data

Results flagged for a closer look

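The effect of ICB differed between tumors given 5-FU and tumors not given it for these 15 called genes, which is the test of the interaction itself (edgeR, adjusted p of 0.0471 to 0.0496). The log2 values were -4.36 for Nos2, -4.20 for AC119228.1, -2.93 for Gbp8, -2.83 for C4a, -2.68 for Gbp4, -2.62 for Cd274, -2.59 for Gbp5, -2.40 for Gbp11, -2.17 for Gbp10, -2.08 for Gbp7, -1.97 for Gbp6, -1.91 for Gm43302, -1.31 for Gbp9, 1.19 for Pmvk and 1.48 for Nsdhl. Each kept its sign under all the alternatives that gave it a value.

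Of 80 groups of 4 or 5 tumors checked for a tumor far from the others by Dixon's criterion, 8 had one, and chance gives about 1 in 20. The mitochondrial share was 16.1% in 5-FU+ICB tumor 5 and 6.80% in 5-FU tumor 3, each the highest of its group. Gbp5 was highest in ICB tumor 2 at 398 CPM, Cd274 was lowest in PBS tumor 1 at 9.94 CPM, and Rpl28 was highest in ICB tumor 1 at 533 CPM. AC119228.1 was lowest in PBS tumor 1 at 0.0411 CPM and highest in 5-FU+ICB tumor 4 at 8.08 CPM. Atf3 was highest in PBS tumor 2 at 8.36 CPM.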

How the results depend on the processing

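The number of called interactions, 16, was 19 with DESeq2 size factors, 13 without a low-count filter and 16 without the fold threshold. It was 1542 with DESeq2's Wald test, 48 (8 positive and 40 negative) with at least 10 counts in every tumor, 25 on linear CPM with limma and 3858 at an unadjusted p. It was 4 with robust empirical Bayes and 0 with the replicate block, with all 28 tumors in 1 fit, with limma-voom, relative to Ptprc and without 5-FU+ICB tumors 2 and 5, fits in which 4023, 2058, 3435, 4006 and 3513 genes had an unadjusted p below 0.05. Leaving out each tumor gave 0 to 1698 calls, the tumors being named in the results above. The cause of these differences was not tested. The split into positive and negative calls also moved, from 2 of 16 positive to 867 of 1542 with DESeq2 and 20 of 25 on linear CPM. For ICB after 5-FU against after cisplatin, 0 genes were called in every alternative fit by edgeR, with 309 to 2478 at an unadjusted p over the 28 omissions, the most without cisplatin+ICB tumor 1. DESeq2 called 1, and 357 passed at an unadjusted p with the fold threshold.

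Replicate numbers did not pair the tumors, since residuals of same-numbered tumors correlated at -0.47 to 0.678, above 0.1 in 8 of 27 pairs, and 2 of 19 tumors correlated best with their own number. The replicate block gave 0 calls and a smallest adjusted p of 0.0912, and for the cisplatin comparison also 0. It turned Il6 to 0.01.

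Among named genes some that were not called changed sign. On linear CPM these were Cd8b1 at 51.7, Pdcd1 at 26.5, Cd8a at 19.5, Cd28 at 12.7, H2-M2 at 8.91, Cd6 at 6.70, Icos at 6.50, Foxp3 at 0.32 and Pparg at 0.22. Relative to Ptprc, which raised the median of all genes from 0.03 to 1.03, so that values between about -1 and 0 can turn by construction, they were Il6 at 0.85, Pparg at 0.77, Arnt at 0.75, Csf1 at 0.67, Mki67 at 0.59, Tnfrsf11a at 0.56, Susd6 at 0.53, Hif1a at 0.39, Lox at 0.35, Erap1 at 0.19, Ifit2 at 0.14, Zbp1 at 0.10, Col1a1 at 0.10 and Foxp3 at 0.060. With limma-voom they were Il6 at 0.27, Pparg at 0.15, Csf1 at 0.15, Mki67 at 0.027 and Ppargc1a at -0.051, with all 28 tumors Mki67 at 0.0014, and without 5-FU+ICB tumors 2 and 5 Ppargc1a at -0.35 and Mzb1 at -0.88. Leaving out each tumor gave -0.53 to 0.24 for Mki67, -0.35 to 0.052 for Csf1, -0.42 to 0.72 for Ppargc1a, -1.08 to 0.021 for Il6, -0.65 to 0.11 for Pparg and -1.25 to 4.31 for Mzb1.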

Other observations

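Genes that only DESeq2 called, taken by size, included several whose highest value lay in 1 tumor. On the negative side Ctsg, the neutrophil and mast cell protease cathepsin G, had a DESeq2 interaction of -4.80 (adjusted p = 0.00723) and was at 1.55 to 19.4 CPM in ICB tumors against 0.0885 to 0.801 CPM in 5-FU+ICB tumors, with no overlap. In 5-FU tumors it was at 0.0292 to 0.538 CPM, overlapping the 0.0315 to 0.247 CPM of PBS tumors. Some of these values lie below 3 counts (0.0884 to 0.127 CPM), so the size of its interaction is uncertain. Inpp5j, an inositol phosphatase, was at -4.39 (adjusted p = 0.000218), the class I-like gene H2-M2 at -4.52 (0.0403) and Cyp2e1, a cytochrome P450 of liver and fat, at -5.22 (0.0373), with a single ICB tumor at 44.7 CPM and the other four at 0.27 to 3.32 CPM. PBS tumors had few counts of all of these, at 0.106 to 0.220 CPM for Inpp5j, 0.0988 to 0.212 for H2-M2 and 0.0329 to 0.661 CPM for Cyp2e1.

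On the positive side the Langerhans cell lectin Cd207 had a DESeq2 interaction of 2.37 (adjusted p = 0.0452), Nudt17 of 2.12 (0.0487), the olfactory receptor Olfr77 of 2.04 (0.021) and the homeobox gene Meox1 of 1.85 (0.0407). Each was highest of its group in 5-FU+ICB tumor 5, at 11.5 CPM for Cd207, 16.7 for Nudt17, 5.54 for Olfr77 and 56.8 CPM for Meox1. Rn7sk, a small nuclear RNA, was at 3.13 (0.046), with PBS tumor 1 at 36.7 CPM and all other tumors at 0.56 to 3.98 CPM.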
